A study of Mus musculus with 4 samples.

Results

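The genes that lie beside Adarb1 on mouse chromosome 10 were examined in whole brains of Adar2 knockout and wild-type mice. Every transcript cluster on chromosome 10 whose start lay between positions 67290000 and 87419000 was taken, which is about 10 Mb to either side of Adarb1 (77290726 to 77418273, minus strand), and the Adarb1 cluster itself was left out. This gave 416 of the 33793 clusters of the array, 106 at lower coordinates than Adarb1 and 310 at higher coordinates, and none overlapped it. Each cluster is a set of probes that the array's design treats as 1 transcribed locus. Of the 416 clusters, 362 carried a gene symbol (339 different symbols), and the 54 without one were 8 snRNAs, 4 snoRNAs, 4 miRNAs, 4 miscellaneous RNAs, 2 rRNAs and 32 other transcripts. The window was set by position alone and no measured value entered its rule, although earlier results of these data were known.

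The brains came from adult females of the 129SV strain, 2 wild type and 2 Adar2 knockout, with total RNA of whole brain on each array. Per the study's methods the animals were siblings from crosses of heterozygotes, and both genotypes carried a pre-edited Gria2 allele that keeps Adar2 knockout mice alive. Each value is a log2 signal, and a log2 fold change is the knockout mean minus the wild-type mean. The labels do not say how replicate brains were drawn, so p-values measure only the spread between these 4 arrays, and 2 arrays against 2 cannot give an exact two-sided permutation p below 0.333.

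ADAR2, the product of Adarb1, deaminates adenosines to inosines within RNA duplexes and is best known in brain for recoding the glutamate receptor subunit GluA2. DNA on both sides of a targeted gene stays linked to it and is inherited with it for many generations, so genes beside a knocked-out gene can differ between littermates of different genotype in sequence as well as in expression. The comparison asks whether clusters in this neighbourhood differed between the genotypes more than clusters elsewhere. The sequence of the region in these mice was not measured on the arrays, and whether its haplotype differs between the genotypes was not tested.

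The nearest neighbour, Gm17769, starts 103 bases from the end of the Adarb1 cluster on the opposite strand. The RefSeq promoter windows of the pair (GRCm38.p6, each spanning the start) overlap by 202 of 300 bases, and they are shown because they are the closest the neighbourhood comes to the targeted gene. Capitals mark the GC box, GGGCGG on either strand, a motif bound by Sp family factors. It stands 3 times in the first window and 2 times in the second. The 2 in the second window lie in the overlap and are the same sites as 2 of those in the first. The motif occurs in 35.7% of all 32851 promoter windows.
Adarb1, chr10:77418224-77418523, minus strand: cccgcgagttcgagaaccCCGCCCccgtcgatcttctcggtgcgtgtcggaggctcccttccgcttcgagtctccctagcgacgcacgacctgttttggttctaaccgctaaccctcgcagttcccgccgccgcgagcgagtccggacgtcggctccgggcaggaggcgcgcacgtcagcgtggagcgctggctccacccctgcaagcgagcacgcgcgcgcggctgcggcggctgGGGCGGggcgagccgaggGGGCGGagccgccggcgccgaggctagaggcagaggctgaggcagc
Gm17769, chr10:77418126-77418425, plus strand: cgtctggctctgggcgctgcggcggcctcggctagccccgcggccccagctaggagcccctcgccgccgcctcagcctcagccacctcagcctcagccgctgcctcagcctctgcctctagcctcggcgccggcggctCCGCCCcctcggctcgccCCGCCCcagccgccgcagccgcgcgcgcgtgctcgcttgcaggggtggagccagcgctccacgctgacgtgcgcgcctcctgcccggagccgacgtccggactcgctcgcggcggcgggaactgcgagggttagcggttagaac

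Adarb1 itself measured 10.50 and 10.45 in wild-type brain and 9.16 and 8.96 in knockout brain, a log2 fold change of -1.42 ± 0.118 (SE, limma, adjusted p = 0.409). The signal was thus reduced in both knockout arrays as labelled. Where its 24 probes lie relative to the deleted part is not given in the sources used here.

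The arrays carried brain signal, with neuronal markers (Snap25, Syt1, Rbfox3) at a mean log2 signal of 12.09 and 12.05 in wild type, and astrocyte markers (Aqp4, Gfap, Aldh1l1, Slc1a2) at 9.50 to 9.62 over the 4 arrays. Markers of some tissues stood apart. Salivary gland markers averaged 8.04 on knockout array 1 and 4.35 to 4.47 on the other 3 arrays, although Prol1 read 3.17 to 3.36 throughout. Olfactory bulb markers averaged 7.14 on knockout array 2 and 7.63 to 7.78 on the others. On knockout array 2 Cdhr1 read 6.66 and Doc2g 6.70, against 7.44 to 7.92 on the others. Eomes read 6.91 there, against 6.93 to 7.33. Pituitary markers averaged 6.63 and 6.18 in knockout against 5.22 and 4.79 in wild type, and all 6 clusters of the list were higher in knockout. Prl and Gh had log2 fold changes of 4.12 and 3.17 and Pomc 0.51, each with an unadjusted p below 0.05, while the 2 Cga clusters differed by 0.41 and 0.17 and Tshb by 0.01. Red cell markers (Hbb-b1, Alas2) averaged 7.67 and 7.65 in wild type and 7.003 and 8.01 on knockout arrays 1 and 2. Alas2 differed by -0.74 with an unadjusted p below 0.05, and the 2 Hbb-b1 clusters by 0.53 and -0.27 without one. An unadjusted p below 0.05 was also found for Mog (-0.35), Drd1a (-0.32) and Cdhr1 (-0.79). Each was the only such cluster among the oligodendrocyte, striatum and olfactory bulb markers respectively. The part these tissues and cell types play in the values below was not tested. Without knockout array 1, 17 of the 416 clusters had a p below 0.05 in place of 18, and 8 of the 18 were among them. Without knockout array 2, 9 clusters did, and 3 of the 18 were among them. The median log2 fold change was -0.01 without the first and 0.02 without the second, in place of 0.01. Y-linked genes, which a female does not carry, read 3.49 to 4.40 and give the level of signal without a transcript. By that measure 42 clusters (10.1%) were at or below this level on all 4 arrays, against 19.4% of all clusters.

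None of the 12 nearest named clusters, 6 on each side, had an unadjusted limma p below 0.05 on the 4 arrays, and their adjusted p ranged from 0.853 to 0.982. On the lower side, Pofut2, an enzyme that adds fucose to thrombospondin repeats, gave 9.36 and 9.38 in wild type and 9.13 and 9.25 in knockout (log2 fold change -0.18 ± 0.107). Col18a1, which encodes the basement membrane collagen that yields endostatin, gave 6.08 and 6.03 against 6.20 and 6.24 (0.17 ± 0.103). In both genes the groups did not overlap, and the differences ran in opposite directions. Col18a1 had an unadjusted p below 0.05 with a variance that was not shrunk. Pcbp3, a poly(C)-binding protein of the hnRNP family, measured 9.01 and 8.96 against 8.90 and 8.60 (-0.24 ± 0.135). Slc19a1, the reduced folate carrier, gave 7.72 and 7.96 against 7.83 and 7.71, so that the groups overlapped. The predicted genes Gm10941 (-0.18) and Gm10787 (0.05) completed the lower side. In 4 of the 6 clusters on this side (66.7%, against 34.1% of all clusters) the groups did not overlap, 2 higher and 2 lower. For Pcbp3 and Gm10941 the 2 knockout arrays lay apart. Without knockout array 1 their differences were -0.39 and -0.34, both with an unadjusted p below 0.05, and without knockout array 2 they were -0.09 and -0.03. A fit with 1 array left out has a lone array in that genotype, which is assumed to vary like the other genotype's 2.

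On the higher side, Gm17769, which shares its start region with Adarb1, gave 6.79 and 6.68 in wild type and 6.82 and 6.75 in knockout (log2 fold change 0.05 ± 0.108). Its groups overlapped, and the difference was smaller than the gap between the wild-type arrays. Itgb2, the integrin beta chain of leukocytes and microglia, gave 6.86 and 6.94 against 6.82 and 6.80 (-0.09 ± 0.104), without overlap. Beside it, 3 microglia markers (Csf1r, Cx3cr1, P2ry12) averaged 8.44 and 8.43 in wild type and 8.23 and 8.29 in knockout, and their part in the Itgb2 value was not tested. Pttg1ip, whose product binds the pituitary tumour transforming protein, gave 9.14 and 9.05 against 9.08 and 8.99, with overlap. The log2 fold changes of 1810008A18Rik, 2810425M01Rik and LOC100862482 were -0.03, 0.08 and -0.16. Neither side thus showed a difference near the -1.42 of Adarb1.

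**Figure D1:**
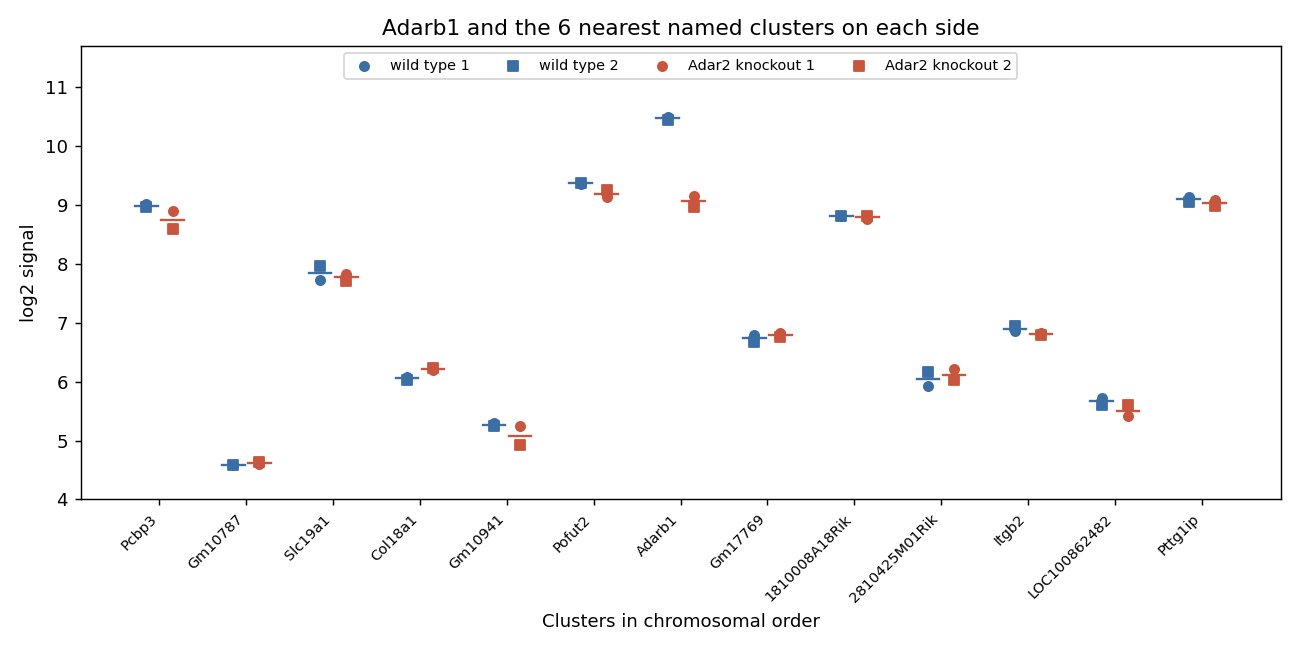
Log2 signal (y axis) on each of the 4 arrays for Adarb1 and the 6 nearest named clusters on each side, in chromosomal order (x axis). Circles and squares are replicates 1 and 2, blue is wild type, red is Adar2 knockout, and short lines are group means. Adarb1 is the only one of the 13 with groups far apart, 10.45 and 10.50 against 8.96 and 9.16.

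Over all 416 clusters the median log2 fold change was 0.01 (quartiles -0.08 and 0.10), beside 0.01 over all clusters of the array and 0 over the other 1160 clusters of chromosome 10. In knockout brain 226 clusters were higher (54.3%, against 50.8% of all clusters) and 182 lower, and 8 were equal. Centring each array on its median moves every difference by -0.04 and turns the median of the members to -0.03, so these directions depend on scaling. No cluster passed an adjusted limma p of 0.05, and the lowest adjusted p was 0.834. Of all 33793 clusters 0% passed it. An unadjusted p below 0.05 was found for 18 clusters (4.33%), against 5.95% of all clusters. Of these, 12 were higher (2.88%, against 3.64% of all) and 6 lower (1.44%, against 2.31%). The split between directions depended on scaling, and with each array centred on its median, or quantile normalized, 10 were higher and 10 lower. Over all clusters the first gave 801 higher and 1229 lower, and the second 896 and 944. The groups did not overlap in 129 clusters (31.0%), 70 higher and 59 lower, against 34.1% of all clusters. The shares in this neighbourhood lay near those of the array as a whole.

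Large differences were few. The log2 fold change reached 0.5 in either direction in 4 clusters (0.962%, against 1.62% of all), and 1 of them, an unnamed snoRNA, passed 1. Its values were 5.38 and 6.29 in wild type and 5.09 and 4.50 in knockout (-1.04 ± 0.334), its wild-type arrays were 0.91 apart, and its probes can cross-hybridize. Of the 4 fits that left out 1 array, the one without wild-type array 1 kept its p below 0.05, and on all 4 arrays it was lost with the replicate number as a block and with a variance that was not shrunk. Among clusters with a symbol the differences ran from -0.60 to 0.59.

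**Figure D2:**
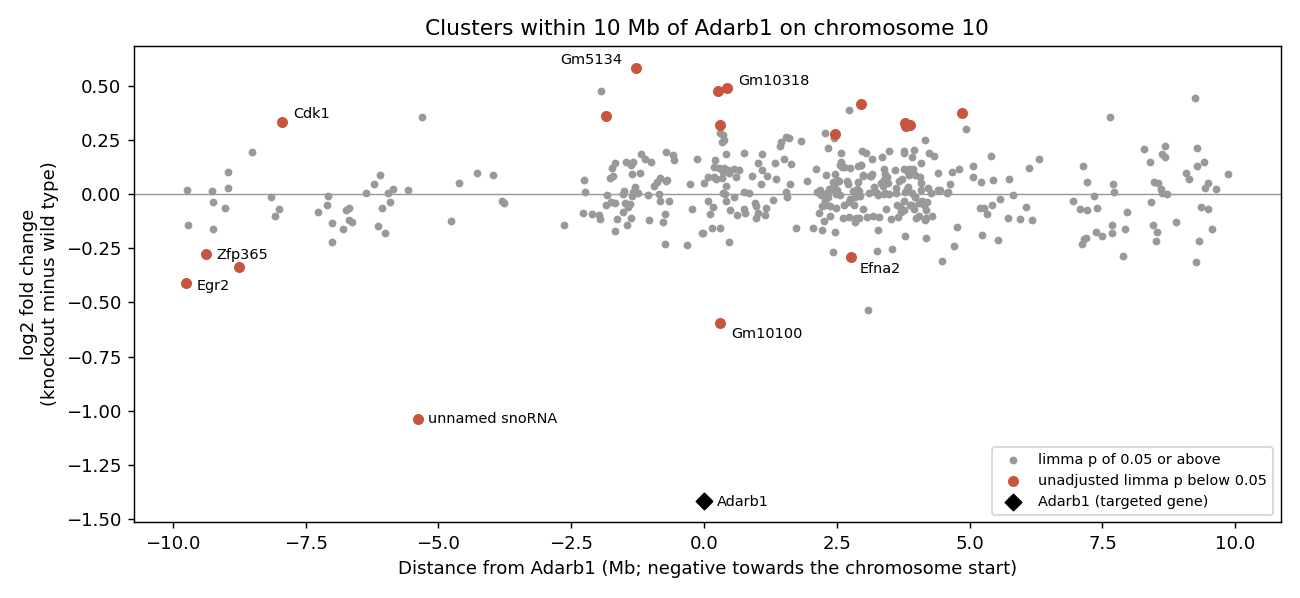
Log2 fold change, knockout minus wild type (y axis), against distance from Adarb1 in Mb (x axis, negative towards lower coordinates) for the 416 clusters. Red points are the 18 with an unadjusted limma p below 0.05, grey points the others, and the black diamond is Adarb1 at -1.42. The red points lie 1.28 to 9.75 Mb below Adarb1 and 0.272 to 4.86 Mb above it.

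Of the 13 named clusters with an unadjusted p below 0.05, 5 were lower in knockout. All 13 had an adjusted p of 0.834, so none passes the correction for the whole array. Egr2, an immediate-early zinc finger transcription factor that neurons induce on activity and that Schwann cells need to myelinate, is the farthest named member on its side, 9.75 Mb from Adarb1. It gave 9.13 and 9.11 in wild type and 8.72 and 8.70 in knockout (log2 fold change -0.41 ± 0.101). The replicates were 0.02 apart in both groups. The p stayed below 0.05 under every alternative fit and with any 1 array left out. Nrbf2, the nearest named cluster outside the window on that side, had a log2 fold change of 0.02. On the other side the last named member, 1700113H08Rik, had 0.03. The promoter window of one Egr2 transcript is shown because Egr2 had the smallest p among named clusters that were lower. Capitals mark a CArG box, CC, 6 bases of A or T, then GG, on either strand, which is the site bound by serum response factor. It stands in 4 of the 5 RefSeq windows of Egr2, of which 3 overlap and hold the same site, and in 1.63% of all promoter windows.
Egr2, chr10:67537680-67537979, plus strand: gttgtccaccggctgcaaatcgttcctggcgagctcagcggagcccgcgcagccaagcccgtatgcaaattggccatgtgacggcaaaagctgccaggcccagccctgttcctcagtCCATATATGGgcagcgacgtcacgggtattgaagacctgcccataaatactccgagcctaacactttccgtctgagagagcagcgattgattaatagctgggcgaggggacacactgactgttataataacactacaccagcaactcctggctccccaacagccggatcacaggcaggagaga

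Zfp365, a zinc finger gene expressed in neurons, measured 9.84 and 9.73 in wild type and 9.54 and 9.48 in knockout (-0.28 ± 0.107). 1700040L02Rik gave 7.17 and 7.02 against 6.84 and 6.68 (-0.34 ± 0.120). These 2 and Egr2 lie at the far end of the window, 8.75 to 9.75 Mb from Adarb1. Efna2, a membrane-bound ephrin ligand of Eph receptors that guides axons, gave 8.88 and 8.92 against 8.62 and 8.60 (-0.29 ± 0.102). All 4 had groups that did not overlap. 1700040L02Rik kept its p below 0.05 in 1 of the 4 fits with an array left out and lost it with a variance that was not shrunk. Gm10100, a predicted gene 0.308 Mb from Adarb1, measured 5.92 and 6.13 against 5.59 and 5.27 (-0.60 ± 0.151), and its probes can cross-hybridize. It kept its p below 0.05 in 2 of the 4 fits with an array left out and lost it with a variance that was not shrunk.

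The other 8 named clusters were higher in knockout. Gm5134, a predicted gene 1.28 Mb from Adarb1, gave 5.21 and 5.37 in wild type and 5.81 and 5.94 in knockout (log2 fold change 0.59 ± 0.118), the largest positive difference among the members. The p stayed below 0.05 under every alternative fit in which the cluster was tested and with any 1 array left out. A second Gm5134 cluster on the opposite strand gave 5.58 and 6.07 against 5.74 and 5.98 (0.04), so the 2 clusters of this symbol differed by 0.55. That is the widest gap among the 22 symbols with several clusters, and in 18 of those the signs were the same.

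Cdk1, the kinase that drives entry into mitosis, gave 5.15 and 5.39 in wild type and 5.60 and 5.61 in knockout (0.34 ± 0.123). Upb1, which breaks down pyrimidines to beta-alanine, measured 5.13 and 5.13 against 5.32 and 5.66 (0.36 ± 0.142). The uncharacterised 2310050B05Rik gave 5.82 and 5.93 against 6.16 and 6.25 (0.33 ± 0.109). In each of these 3 both knockout arrays lay above both wild-type arrays, and 2310050B05Rik kept its p below 0.05 in 2 of the 4 fits with an array left out. Elane, neutrophil elastase, measured 5.75 and 5.68 against 5.98 and 6.01 (0.28 ± 0.103). Beside it, 4 neutrophil markers (S100a8, S100a9, Ngp, Camp) averaged 4.96 and 4.72 in wild type and 4.90 and 4.80 in knockout, with 2 higher and 2 lower. Prtn3, the proteinase gene next to Elane, gave 6.68 and 6.88 against 6.68 and 6.95, with overlap. Elane and Zfp365 lost their p below 0.05 whichever of the 4 arrays was left out, as did Efna2, and Cdk1 and Upb1 kept it in 1 of the 4 such fits. On all 4 arrays Elane and Upb1 also lost it with median centring, with quantile normalization, with the replicate number as a block and with an intensity trend, Cdk1 with quantile normalization and the block, and Zfp365 with quantile normalization. With a variance that was not shrunk Upb1 and Cdk1 lost it. In bulk tissue a change in the number of cells of a type cannot be told apart from a change in RNA per cell.

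The remaining 3 named clusters, Gm19402, Gm10024 and Gm10318, lie with Gm10100 in a stretch of 20 clusters, 0.272 to 0.475 Mb above Adarb1, that holds keratin-associated protein genes and predicted genes. Gm19402 gave 4.19 and 3.86 in wild type and 4.52 and 4.48 in knockout (0.48 ± 0.140), Gm10024 gave 4.48 and 4.37 against 4.76 and 4.73 (0.32 ± 0.106), and Gm10318 gave 4.09 and 4.37 against 4.55 and 4.89 (0.49 ± 0.164). Each kept its p below 0.05 in 1 of the 4 fits with an array left out, and Gm19402 and Gm10318 lost it with a variance that was not shrunk. Their wild-type signals lay within or next to the 3.49 to 4.40 read by Y-linked genes. Of the 20 clusters 11 have probes that can cross-hybridize (55.0%, against 14.7% of all), 16 were higher in knockout, 3 lower and 1 equal, with a median log2 fold change of 0.12. The 4 Krtap clusters ranged from -0.03 to 0.29, none with a p below 0.05. This stretch was singled out after its values were seen, so its median and counts are a description. The values of the 11 cross-hybridizing clusters may hold signal from related copies.

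**Figure D3:**
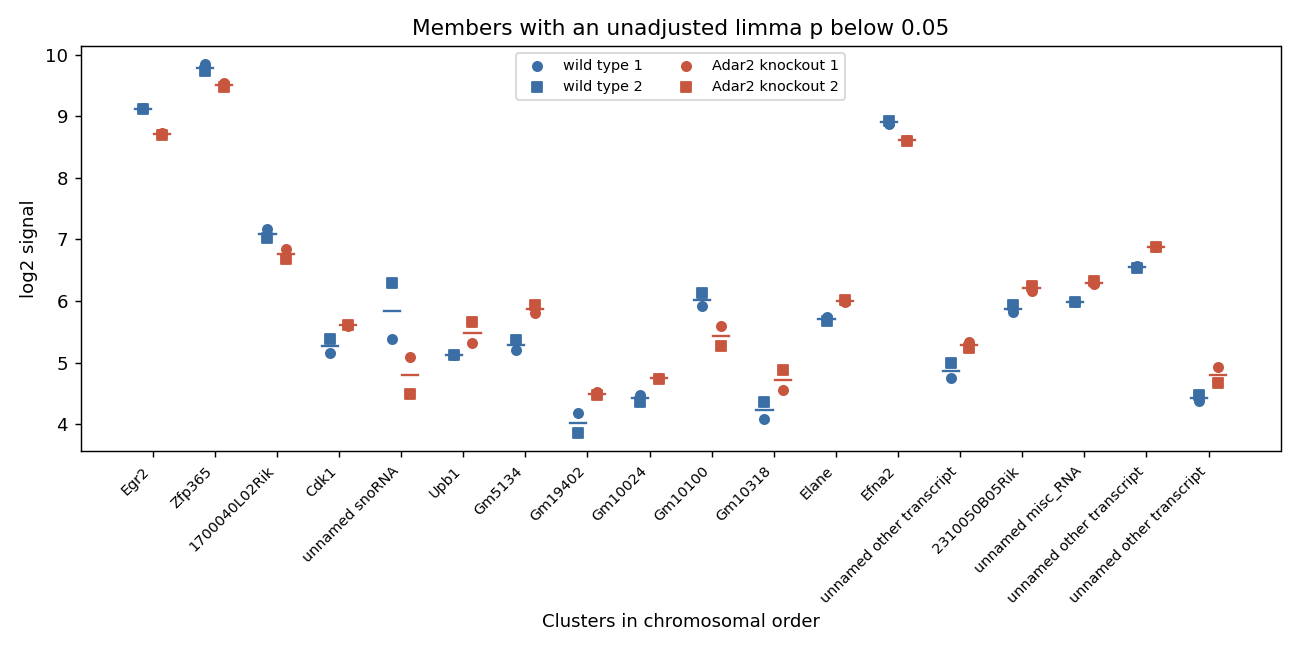
Log2 signal (y axis) on each array for the 18 clusters with an unadjusted limma p below 0.05, in chromosomal order (x axis). Circles and squares are replicates 1 and 2, blue is wild type, red is Adar2 knockout, and short lines are group means. Groups do not overlap in any of the 18, and the snoRNA has the widest spread, 5.38 to 6.29 in wild type.

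Gm5779, a predicted gene 1.94 Mb below Adarb1, had a difference of the size of Gm19402 and missed the threshold, with 4.76 and 4.99 in wild type and 5.61 and 5.09 in knockout (0.48 ± 0.195). Of the 54 clusters without a symbol, 5 had a p below 0.05 (9.26%, against 5.95% of all clusters). Of these, 4 were higher in knockout (7.41% of the 54, against 3.64% of all), by 0.32 to 0.42. They were a miscellaneous RNA at 3.80 Mb, which can cross-hybridize, and transcripts at 2.95, 3.88 and 4.86 Mb above Adarb1. The fifth is the snoRNA described above.

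Distance from Adarb1 was set against the size and direction of the differences. Within 0.5 Mb the median log2 fold change was 0.07 over 38 clusters, and 4 (10.5%) had a p below 0.05, all from the stretch of keratin-associated and predicted genes. The other 18 clusters within 0.5 Mb had a median of -0.05, with 8 higher and 10 lower, and none with a p below 0.05, while their groups did not overlap in 11 (61.1%, against 34.1% of the array). In the stretch of 20 they did not overlap in 8. From 0.5 to 1 Mb none of 29 clusters had one, from 1 to 2 Mb 2 of 59 (3.39%), from 2 to 5 Mb 7 of 182 (3.85%) and from 5 to 10 Mb 5 of 108 (4.63%). With both sides pooled, all shares beyond 0.5 Mb lay below the 5.95% of the array. From 5 to 10 Mb the sides were unlike, with 5 of 38 clusters (13.2%) below Adarb1, 1 higher and 4 lower, and none of 70 above it. The count of 4 within 0.5 Mb was 0 without knockout array 2, 1 without wild-type array 2, 6 without knockout array 1, 2 with a variance that was not shrunk, and 0 among clusters above the median signal. Groups that did not overlap were found in 19 of the 38 and in 28.0% to 34.5% of clusters in the more distant bins, against 34.1% of the array.

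The 2 sides were also taken apart. Below Adarb1 the median log2 fold change was -0.01 and 7 of 106 clusters (6.60%, against 5.95% of all clusters) had a p below 0.05, 3 higher (2.83%, against 3.64%) and 4 lower (3.77%, against 2.31%). Above it the median was 0.02 and 11 of 310 (3.55%) did, 9 higher (2.90%) and 2 lower (0.645%). The difference between the sides was not tested. Across clusters, Spearman's correlation of distance with the absolute log2 fold change was 0.02, and with the signed one -0.16. Clusters are not independent replicates, and all share the same 4 arrays. Of 415 pairs of adjacent clusters 201 had differences of the same sign, and the correlation of neighbours was -0.02.

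Differences between replicates were set beside those between genotypes. A gap between 2 single arrays is wider by construction than one between 2 means, so the values are compared with those of the array and not with each other. The median absolute difference between the 2 wild-type arrays was 0.14 and between the 2 knockout arrays 0.11, while that between genotype means was 0.09. Over all clusters of the array the same medians were 0.13, 0.13 and 0.10. Within 0.5 Mb of Adarb1 they were 0.12, 0.10 and 0.12. Replicates lay 1 or more apart in 1 member, an unnamed miRNA cluster that read 1.82 and 2.85 in wild type and 2.18 and 2.17 in knockout.

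**Figure D4:**
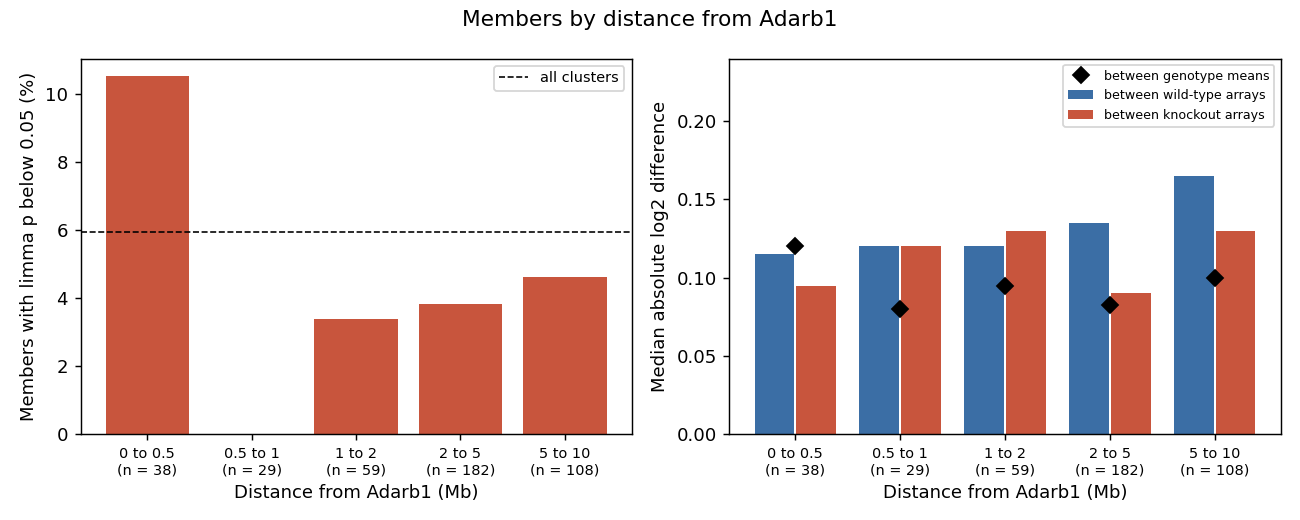
Left, percent of clusters with an unadjusted limma p below 0.05 (y axis) by distance from Adarb1 (x axis, Mb), with the 5.95% of all clusters as a dashed line. Right, median absolute log2 difference between the wild-type arrays (blue), the knockout arrays (red) and the genotype means (diamonds) in the same bins, of 38, 29, 59, 182 and 108 clusters; the 10.5% nearest Adarb1 are 4 clusters.

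The direction of the small differences varied with the level of the signal, near Adarb1 as over the array. Over the quartiles of mean log2 signal of the whole array, from dimmest to brightest, 65.6%, 67.1%, 55.2% and 41.7% of the clusters near Adarb1 were higher in knockout, against 58.7%, 62.2%, 48.7% and 33.5% of all clusters. The medians were 0.06, 0.06, 0.01 and -0.02 near Adarb1 and 0.04, 0.05, 0 and -0.04 over the array. Of the 12 called clusters that were higher, 10 (83.3%) lay below the array's median signal of 6.06, as did 75.3% of all clusters called higher. Of the 6 that were lower, 2 (33.3%) did, against 49.8%. Egr2, Zfp365, Efna2 and 1700040L02Rik lay above it. The share of calls also varied with signal level. Over the same quartiles, 6.25%, 9.41%, 2.59% and 1.99% of the clusters near Adarb1 had an unadjusted limma p below 0.05. Over all clusters the shares were 7.49%, 8.08%, 5.08% and 3.13%. The clusters near Adarb1 had a median log2 signal of 6.80, against 6.06 over the array. The part that signal level plays in the calls was not tested.

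**Figure D5:**
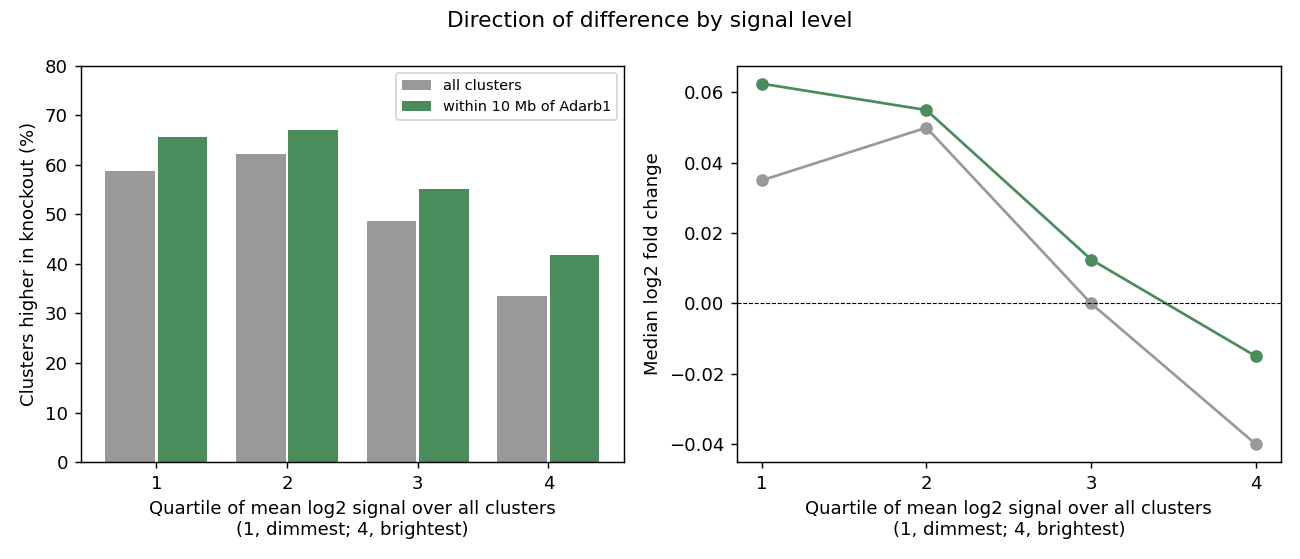
Left, percent of clusters higher in knockout (y axis), and right, median log2 fold change (y axis), by quartile of mean log2 signal over the whole array (x axis, 1 dimmest, 4 brightest). Green is the 416 clusters within 10 Mb of Adarb1 and grey all clusters; both go from 65.6% and 58.7% higher in the dimmest quartile to 41.7% and 33.5% in the brightest.

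The neighbourhood holds many genes with known roles, which were counted by list. The counts of higher and lower clusters in these lists depend on scaling in the same way. The counts with a p below 0.05 stand beside the 5.95% of all clusters, and no list held more than 2. Those named from the lists without an unadjusted p below 0.05 had an adjusted p of 0.835 to 0.992. Neuronal signalling genes (27 clusters of 25 genes) counted 9 clusters higher and 18 lower, with a median of -0.05 on the log2 scale, and Efna2 alone had a p below 0.05. Gna11, a G protein alpha subunit that activates phospholipase C, gave 11.09 and 11.23 in wild type and 11.17 and 11.09 in knockout. Grin3b, the GluN3B subunit of NMDA receptors, gave 5.99 and 6.28 against 6.24 and 6.30 (0.14). Both had groups that overlapped. Adora2a, the adenosine receptor of striatal neurons, measured 9.11 and 9.23 against 9.02 and 9.09 (-0.12 ± 0.109). Beside it, the mean of 6 striatal marker clusters was 9.92 and 9.84 in wild type and 9.71 and 9.66 in knockout, and its part in the Adora2a value was not tested.

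Transcription and chromatin genes (24 clusters, 23 of the 25 genes listed) had a median of -0.01, and Egr2 alone had a p below 0.05. Smarcb1, a core subunit of SWI/SNF remodelling complexes, gave 9.86 and 9.78 against 9.80 and 9.62 (-0.11). Mbd3, a subunit of the NuRD complex, measured 9.14 and 9.20 against 9.33 and 9.41 (0.20 ± 0.105), without overlap. Cry1, a repressor of the circadian clock, gave 7.15 and 7.09 against 7.16 and 7.10. Of the 6 Zfp clusters, with a median of -0.05, Zfp365 alone had a p below 0.05. Zfp781 gave 7.07 and 6.94 against 6.40 and 6.99, so that 1 knockout array set its difference of -0.31, and Zfp938 gave 6.52 and 6.63 against 6.52 and 6.86.

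Genes of mitochondria and metabolism (23 clusters of 21 genes) had a median of -0.02 and none had a p below 0.05. Ndufs7, a subunit of respiratory complex I, measured 12.68 and 12.66 in wild type and 12.60 and 12.64 in knockout. Slc16a9, a transporter of the monocarboxylate family, gave 5.16 and 5.23 against 4.96 and 4.99 on a minus-strand cluster (-0.22 ± 0.103). That cluster had an unadjusted p below 0.05 with median centring, quantile normalization or a variance that was not shrunk. RefSeq places Slc16a9 on the plus strand, and its plus-strand cluster gave 7.35 and 7.24 against 7.24 and 7.08 (-0.14). Gpx4, the peroxidase that removes lipid hydroperoxides, gave 8.96 and 9.14 against 9.19 and 9.16 (0.13). Atp5d, the delta subunit of ATP synthase, had the widest difference of the list on its minus-strand cluster, 10.28 and 10.96 against 10.98 and 11.04 (0.39 ± 0.224). That difference rests on wild-type array 1, while the plus-strand Atp5d cluster gave 11.35 and 11.34 against 11.29 and 11.19 (-0.11). The 8 glutathione and MIF genes had a median of -0.04 and none had a p below 0.05. Mif, an inflammatory cytokine, gave 11.20 and 11.41 against 11.27 and 11.22, and the glutathione transferases Gstt4 and Gstt2 had differences of 0.15 and -0.14.

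Genes of RNA and protein synthesis (18 clusters, 17 of the 19 genes listed) had a median of -0.03 and none had a p below 0.05. Eef2, the elongation factor that translocates the ribosome, gave 12.51 and 12.59 against 12.49 and 12.55, and Cirbp, a cold-inducible RNA-binding protein, 7.58 and 7.62 against 7.69 and 7.47. Rexo1, an RNA exonuclease, differed by 0.09. Genes of ubiquitin, SUMO and chaperones (11 clusters) had a median of 0.04 and none had a p below 0.05. Hsp90b1, a chaperone of the endoplasmic reticulum, differed by 0.22 ± 0.109, and Ube2d1, a ubiquitin-conjugating enzyme, 11.36 and 11.14 against 11.05 and 11.09 (-0.18 ± 0.120). In both genes the groups did not overlap.

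Matrix and adhesion genes (14 clusters of 12 genes) had a median of 0.03 and none had a p below 0.05. Timp3, an inhibitor of metalloproteinases, gave 9.32 and 9.25 against 9.14 and 9.17 (-0.13), Cnn2, a calponin, 7.33 and 7.50 against 7.75 and 7.46 (0.19), and Chst11, a chondroitin sulfotransferase, 9.94 and 9.73 against 9.81 and 9.82. Only the groups of Timp3 did not overlap among these 3. The 10 blood and immune cell genes had a median of 0.07, with 8 higher and 2 lower, and Elane alone had a p below 0.05. Matk, a kinase that restrains Src, differed by 0.11, and Cfd, complement factor D, by -0.18. Of the 7 centrosome and cell division clusters (7 of the 8 genes listed), with a median of 0.05, Cdk1 alone had a p below 0.05. Zwint, a kinetochore protein, gave 12.29 and 12.14 against 12.30 and 12.23. Ckap4 was counted in this list although it encodes a membrane protein of the endoplasmic reticulum. It gave 8.05 and 8.13 against 7.95 and 7.77 (-0.23 ± 0.116), the lowest difference of the list.

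Of 10 olfactory receptor clusters 9 were higher in knockout, with a median log2 fold change of 0.18 and none with a p below 0.05. They are expressed in nasal sensory neurons, and 9 of the 10 were at or below the Y-linked level on all 4 arrays, and of all members in the dimmest quartile of signal 65.6% were higher. Olfr8 gave 3.27 and 3.68 in wild type and 3.82 and 3.66 in knockout (0.27). Olfr1357 and Olfr1352 differed by 0.09 and -0.02. Of the 24 small RNA clusters, with a median of 0.04, 12 were at or below the Y-linked level, 13 can cross-hybridize, and 2 (8.33%, against 5.95% of all clusters) had a p below 0.05, the snoRNA and the miscellaneous RNA given above. Unnamed snRNA and miRNA clusters with the widest rise and the highest signal read 3.13 and 3.23 against 3.34 and 3.73, and 6.67 and 7.27 against 7.01 and 7.22.

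The named miRNA of the neighbourhood, Mir1930, lies 0.223 Mb above Adarb1 (77641224 to 77641307, plus strand). Its arms are shown as the only RefSeq-matched miRNA among the members, with the seed, bases 2 to 8, in capitals. The precursor cluster gave 5.87 and 5.72 in wild type and 5.99 and 5.74 in knockout (0.07 ± 0.132), with overlap, and the array does not measure the mature arms separately.
mmu-miR-1930-5p: aCCUCCAUaguaccugcagcgu
mmu-miR-1930-3p: gGUGCAGUuacuguggcugugg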

How the data were processed

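Total brain RNA, 2 arrays per genotype, had been prepared with the Ambion WT Expression Kit for Affymetrix mouse gene arrays. The authors deposited normalized log2 signals to 2 decimals for 33793 transcript clusters. The submitters' processing notes name Affymetrix Expression Console and RMA without saying what each did. Columns with the authors' ratios, fold changes, p-values and group averages were not used. The genome build of the coordinates is not given in the sources used here. Of 346 member clusters whose symbol matched RefSeq GRCm38.p6, 339 (98.0%) overlapped the span. Samples were grouped by the genotype in the labels.

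The difference between genotypes was fitted in R 4.3.3 by limma 3.58.1, using lmFit with 1 term for genotype and then eBayes (two-sided, no filter, Benjamini-Hochberg adjustment over the whole table, prior SD 0.125 with 3.79 prior degrees of freedom), after the script was tested on simulated data with 200 changed clusters. Summaries used pandas 2.3.3 in Python 3.11.15. Counts of members are read against all clusters, and no set test was run. The number of arrays limits the precision.

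Named were the 6 nearest clusters with a symbol on each side, symbols past an unadjusted p of 0.05 whose groups were separate, the 3 largest rises and falls, up to 4 examples per role list, and clusters with replicates 1 or more apart. Members and lists were chosen with earlier results of these data known. Alternatives were median centring, quantile normalization, a filter at the median signal, the replicate number as a block, an intensity trend, an unshrunk variance, windows of 5 and 2 Mb, leaving out cross-hybridizing clusters and leaving out each array. A filter on members at the Y-linked level and the runs of the count within 0.5 Mb were added after seeing the data.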

Additional observations from a re-analysis of the deposited data

How the results depend on the processing

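No alternative gave a member with an adjusted p below 0.05, and the median log2 fold change over members stayed between -0.03 and 0.045. The count of members with an unadjusted p below 0.05 was 18, and it was 8 among clusters above the median signal (of 267, where 5.85% of all such clusters passed), 6 within 2 Mb (4.80% of 125, against 5.95%), and 9 to 17 with 1 array left out (2.16% to 4.09%, against 3.61% to 5.33% of all). The lowest, 9, was without knockout array 2, where 4.86% of all clusters passed. The count of members with groups that do not overlap was 129, and it was 80 above the median signal (30.0%, against 34.3% of all such clusters), 46 within 2 Mb (36.8%, against 34.1% of all) and 236 to 294 with 1 array left out (56.7% to 70.7%, against 64.1% to 67.2% of all), where fewer arrays separate more easily. Both smaller sets hold fewer clusters. With replicate number as a block the first count was 15 of 416, where 5.01% of all clusters passed. The numbers do not pair the arrays by their labels, and the correlation of same-numbered deviations was 0.05. Of the 18 calls, 16 were kept with median centring, 14 with quantile normalization, 13 with the block, 16 with an intensity trend, 9 with an unshrunk variance, and 7, 5, 8 and 3 without wild-type array 1, wild-type array 2, knockout array 1 and knockout array 2. All 18 kept their direction in these fits. Adarb1 stayed between -1.52 and -1.32.

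Some named differences near 0 changed sign, and the cause was not tested. With quantile normalization Gm10787 gave -0.00375, 1810008A18Rik 0.00875, Gna11 0.01, Chst11 0.0213, Ndufs7 0.045 and Cirbp 0.00375. With median centring Cry1 gave -0.03 and Prtn3 -0.005. With 1 array left out the range was -0.19 to 0.05 for Slc19a1, -0.005 to 0.11 for Gm17769, -0.04 to 0.20 for 2810425M01Rik, -0.10 to 0.04 for Gna11, -0.01 to 0.28 for Grin3b, -0.125 to 0.085 for Chst11, -0.165 to 0.045 for Mif, -0.005 to 0.31 for Gstt4, -0.07 to 0.01 for Eef2, -0.025 to 0.195 for Rexo1, -0.025 to 0.125 for Zwint, -0.11 to 0.08 for Olfr1352, -0.055 to 0.285 for Zfp938, -0.02 to 0.04 for Cry1, -0.13 to 0.09 for Cirbp, -0.10 to 0.17 for Prtn3, and -0.16 to 0.45 and -0.68 to 0.36 for the 2 unnamed miRNA clusters. An unadjusted p below 0.05 was gained by Hsp90b1 with the intensity trend, by Gm5779 without cross-hybridizing clusters or knockout array 2, by Atp5d (minus strand) and Olfr8 without wild-type array 2, by Zfp781 without knockout array 2, and by an unnamed snRNA (0.55) without knockout array 1. An unnamed miRNA gained it in opposite directions, at -0.68 without wild-type array 1 and 0.36 without wild-type array 2. With 2 arrays a group, a difference at the level of the replicate spread could not be told from 0.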
